A study of Mus musculus with 2 samples.

Results

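The genes described here are 7 subunit genes of the GABA-A receptor, Gabrd, Gabra4, Gabra5, Gabra2, Gabra3, Gabrg1 and Gabrg3. They were chosen by their gene symbols, and all 7 were found among the 32285 genes of each count matrix. The remaining subunit genes of the receptor entered only the searches and counts over all genes and are not described here. In Slide-tags, DNA barcodes released by an array of beads mark where each nucleus of a thin frozen section lay, and the nuclei are then isolated and sequenced one by one in droplets. The present data are its gene counts from 2 libraries of mouse brain, and no positions were used. The adult hippocampus library came from a coronal section of a male C57BL/6J mouse at 56 days of age, perfused before freezing. The E14 brain library came from a sagittal section of a C57BL/6J embryo at embryonic day 14, bought frozen as a whole embryo, with its sex not stated. The adult mouse was under isoflurane, an anaesthetic known to act on GABA-A receptors, when it was perfused, and the methods name no anaesthetic for the embryo. Before the embryo was collected, the pregnant mouse was perfused with saline (PBS). No transgene or other treatment is named for either animal. Each group was therefore 1 library, and tissue, age, sex, anaesthesia and library differed together and cannot be told apart. The adult library held 30 UMIs (unique molecular identifiers, which count captured RNA molecules) of Xist and 4997 of Y-linked genes, and the E14 library 117621 and 44.

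The GABA-A receptor is a chloride channel of 5 subunits that GABA, the main inhibitory transmitter of the adult brain, opens. Receptors with a gamma subunit and an alpha 2 or alpha 3 subunit are enriched at synapses, where they carry brief currents. Receptors with the delta subunit, which pairs with alpha 4 in dentate granule and thalamic relay cells, and most receptors with alpha 5, lie outside synapses and carry a steady, or tonic, current. In embryonic neurons GABA often depolarises the cell, and subunit use shifts as the brain matures. Accordingly Gabrd, Gabra4 and Gabra5 are called tonic subunit genes below, and Gabra2, Gabra3, Gabrg1 and Gabrg3 synaptic subunit genes, after these common roles.

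The 7 genes lie at 4 places in the GRCm38 genome (GENCODE vM21 annotation), all on the minus strand. Gabrg1 (chr5:70751047-70842617), Gabra2 (chr5:70957597-71095849) and Gabra4 (chr5:71569749-71658308) stand next to each other among the members, with gaps of 115.0 kb and 473.9 kb. Gabrg3 (chr7:56716465-57387188) and Gabra5 (chr7:57407672-57510059) are 20.5 kb apart. Gabra3 (chrX:72432681-72656848) is X-linked, and Gabrd (chr4:155384980-155398112) is the shortest of them. Gene length matters here because nuclear RNA holds introns and reads in introns were counted. Gabrd spans 13.1 kb and Gabrg3 670.7 kb, so levels are compared between genes only per 100 kb of gene. Gabrg3 overlaps 3 genes on its own strand (Gm17984, Gm44976 and Gm44977) and Gabra3 contains Mir105 and Mir767, so reads from these could not be assigned with certainty.

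The RefSeq promoter table (GRCm38.p6) held 6 of the 7 genes. The promoters of the 3 neighbours on chromosome 5 are shown because these genes lie together yet were led by different adult classes, Gabra4 by thalamic, Gabra2 by dentate granule and Gabrg1 by astrocyte nuclei. Each sequence is the 250 bases before the transcription start, on the minus strand, 5′ to 3′, and capitals mark a GC box (GGGCGG, on either strand).
Gabra4 (chr5:71658309-71658558): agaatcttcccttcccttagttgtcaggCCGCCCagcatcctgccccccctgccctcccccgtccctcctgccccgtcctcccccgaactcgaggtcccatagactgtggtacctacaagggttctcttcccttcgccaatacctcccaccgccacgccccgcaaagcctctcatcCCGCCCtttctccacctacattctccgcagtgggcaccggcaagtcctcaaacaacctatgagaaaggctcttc
Gabra2 (chr5:71095850-71096099): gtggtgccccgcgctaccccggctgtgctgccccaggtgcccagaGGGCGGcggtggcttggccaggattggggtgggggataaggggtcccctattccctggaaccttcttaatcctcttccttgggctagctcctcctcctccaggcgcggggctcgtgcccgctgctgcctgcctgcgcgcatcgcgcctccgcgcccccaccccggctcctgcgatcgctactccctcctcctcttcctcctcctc
Gabrg1 (chr5:70842618-70842867): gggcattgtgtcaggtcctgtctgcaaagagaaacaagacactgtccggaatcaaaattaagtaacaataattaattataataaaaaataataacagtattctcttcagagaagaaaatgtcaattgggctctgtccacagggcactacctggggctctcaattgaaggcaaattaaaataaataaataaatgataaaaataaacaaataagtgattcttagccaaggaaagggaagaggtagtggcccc

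The 3 promoters differed in base composition. The Gabra2 promoter was 70.0% G or C with 18 CpG pairs and 1 GC box. The Gabra4 promoter was 61.2% G or C with 12 CpG pairs and 2 GC boxes, whereas that of Gabrg1 was 35.6% with 1 CpG pair and no GC box. The median over 32851 mouse promoters of the same length was 52.4% with 6 CpG pairs, and 32.7% of them held a GC box. None of the 3 held a TATA box (TATAAA, in 12.4% of all promoters), a cyclic AMP response element (TGACGTCA, in 1.55%) or an EGR site (GCGTGGGCG, in 0.536%), each searched on both strands. A match is a description of the letters and not a binding site.

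After filtering, 1609 of 1661 adult barcodes and 9036 of 9037 E14 barcodes were kept as nuclei. The adult nuclei held 15346746 UMIs, with a median of 6607 per nucleus, and the E14 nuclei 58923882, with a median of 4204. The 2 libraries shared 1 cell barcode. A level is the sum of a gene's UMIs in a class, set against all UMIs of the same nuclei and given per 1000000 of them (CPM). With 1 library per group no test between animals was possible, so each value has a 95% interval that covers counting error only (exact Poisson for levels, exact Clopper-Pearson for shares and exact binomial for ratios of counts).

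Nuclei were placed in classes from the UMIs of marker genes that did not include the 7 subunit genes, which gave a class to 1335 adult nuclei (83.0%) and 4070 E14 nuclei (45%). The names below follow the marker lists, with "-like" where it is first given. The adult dentate granule-like class (430 nuclei) held the granule cell factor Prox1 in 91.6% of nuclei, and the CA1-like class (197 nuclei) held Fibcd1 at a mean of 81.7 CPM against 8.41 in other nuclei. The CA3-like class (38 nuclei) held Cpne4 at a mean of 792 CPM against 98.2, Trps1 at 1553 CPM against 221 and Iyd at 63.7 CPM against 3.66 in other nuclei. Of its 8 listed markers, Coch (0.965 against 4.21 CPM) and Plagl1 (1.16 against 4.88 CPM) were lower there. The section also held 90 thalamic-like nuclei, with the vesicular glutamate transporter Slc17a6 in 86.7% of them, and 32 cortical excitatory-like nuclei, so the adult library was not hippocampus alone. Other adult classes were inhibitory-like (31 nuclei, Gad2 in 93.5%), oligodendrocyte-like (238), oligodendrocyte precursor-like (33), astrocyte-like (151), microglia-like (36), endothelial-like (37) and mural-like (22). In the mural-like class the endothelial markers, at a median of 125 UMIs per nucleus, outnumbered its own at 79, so its values are of a mixed class. At E14 there were 8 neuron classes with 2881 nuclei, besides radial glia-like (353), intermediate progenitor-like (111), choroid plexus-like (86) and non-neural nuclei. Markers of another list also outnumbered the own markers in 6 E14 classes, by median UMIs per nucleus. With the striatal list these were 14 against 8 in radial glia-like, 23 against 6 in intermediate progenitor-like, 10 against 7 in cortical excitatory-like and 37 against 16 in mural-like nuclei. With the thalamic list they were 16 against 4 in GABAergic-like nuclei without Dlx genes and 15 against 13 in mesenchyme-like nuclei. The part of this in their levels was not tested. An E14 class found with the striatal marker list (545 nuclei) held Meis2 in 99.1% of nuclei, Foxp1 in 79.1% and Isl1 in 47.9%. Meis2 was at a mean of 5892 CPM against 786 in other nuclei, and Isl1 at 214 CPM against 55.1. Foxp1 differed less, at 562 CPM against 407. Of its 8 listed markers, Rarb, Drd1 and Ppp1r1b were lower there than in other nuclei. The class is called Meis2-high here. Nuclei poor in the nuclear RNA Malat1, with under 1.5% of their UMIs from it, made up 24.4% of the thalamic-like and 27.8% of the astrocyte-like adult nuclei. Without such nuclei the thalamic levels were 644 CPM of Gabra4 and 130 CPM of Gabrd, in place of 632 and 132, and the astrocyte levels 411 CPM of Gabra2, 110 CPM of Gabra4 and 98.8 CPM of Gabrg1, in place of 379, 111 and 93.5.

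**Figure D1:**
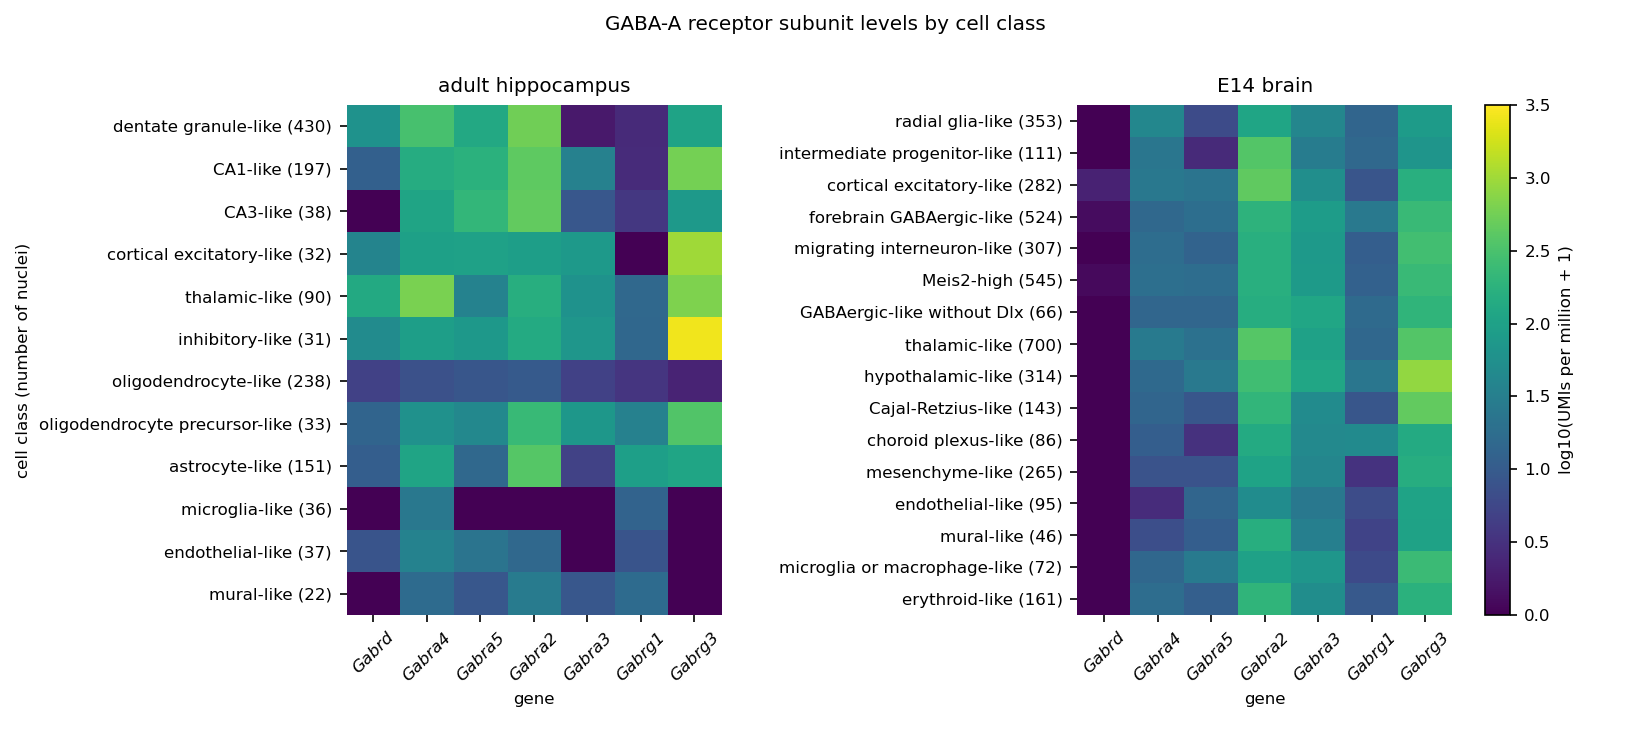
Level of each of the 7 subunit genes (columns) in each cell class (rows, number of nuclei in brackets) of the adult hippocampus (left) and E14 brain (right), as log10 of CPM plus 1 in colour. Gabrd is dark throughout the E14 panel, Gabra4 is highest in adult thalamic-like nuclei (632 CPM) and Gabrg3 in adult inhibitory-like nuclei (2661 CPM).

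Adult oligodendrocyte-like nuclei and the non-neural classes were taken as the background. Whether these cells express the receptor genes was not tested. Adult oligodendrocyte-like nuclei held between 1.26 CPM (Gabrg3, 1 UMI) and 8.81 CPM (Gabra2, 7 UMIs) of the 7 genes, and after thinning every nucleus to 1000 UMIs at most 1.79% of 224 of them held a UMI of any of the 7 genes (Gabra5). Their median depth was 2896 UMIs. The adult microglia-like nuclei held 3 UMIs of the 7 genes in all, 2 of Gabra4 and 1 of Gabrg1. These nuclei held few UMIs in all, so that 3 UMIs would be 36.6 CPM there. Endothelial-like nuclei held 35 CPM of Gabra4 (11.4 to 81.8, 5 UMIs) and 21 CPM of Gabra5 (4.34 to 61.4, 3 UMIs). The adult background was thus low in the oligodendrocyte-like nuclei and poorly bounded in the other classes. At E14 it was higher. Mesenchyme-like nuclei, which are not neural (Col3a1 in 96.6% of 265 nuclei, median depth 3562 UMIs, 20.0% poor in Malat1, and with the thalamic list markers named above), held 105 CPM of Gabra2 (88.2 to 124), 39.0 CPM of Gabra3 (29.1 to 51.1) and 152 CPM of Gabrg3 (132 to 174). In E14 erythroid-like nuclei Gabra2 was at 196 CPM (170 to 225) and Gabrg3 at 170 CPM (146 to 197). These 161 nuclei had a median depth of 1005 UMIs, and 41.0% of them were poor in Malat1. The nucleus of the class with the most Gabra2 UMIs held 85 of 207, and the level without it was 144 CPM (120 to 172). Microglia or macrophage-like nuclei were at 242 CPM of Gabrg3 (203 to 285, and 188 CPM without the nucleus with the most UMIs of it) and 69.0 CPM of Gabra3 (49.3 to 94.0). Endothelial-like nuclei were lower, at 49.7 CPM of Gabra2 (37.4 to 64.6), 24.4 CPM of Gabra3 (16.1 to 35.5) and 106 CPM of Gabrg3 (87.4 to 127). The E14 background of these 3 genes thus differed between the non-neural classes, and the part of free RNA and doublets in it was not tested. The same E14 mesenchyme-like nuclei held 6.74 CPM each of Gabra4 and Gabra5, 2.25 CPM of Gabrg1 and no UMI of Gabrd.

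Over all nuclei the tonic subunit genes were higher in the adult library and Gabra3 was lower. Gabrd, which encodes the delta subunit, was read 643 times in the adult nuclei and 12 times at E14, or 41.9 CPM (38.7 to 45.3) against 0.204 CPM (0.105 to 0.356), a ratio of 206 (117 to 400). Gabra4, for the alpha 4 subunit, was 11.4-fold higher (10.7 to 12.2), at 227 CPM against 19.9 CPM, and Gabra5, for alpha 5, was 5.49-fold higher (5.09 to 5.91), at 110 CPM against 20.1 CPM. The synaptic genes differed less and in both directions. Gabra2 was 1.62-fold higher in the adult (1.57 to 1.67), at 380 CPM against 235 CPM, and Gabrg3 had a ratio of 1.23 (1.19 to 1.27), at 364 CPM against 296 CPM. Gabra3, the X-linked alpha 3 gene, was 4.0-fold lower (3.58 to 4.47), at 22.1 CPM against 88.3 CPM, and Gabrg1, for gamma 1, was 1.79-fold lower (1.5 to 2.14), at 9.45 CPM against 16.9 CPM. At least 2-fold higher were 3 of the 7 genes, where 17.6% of 22609 genes were, and 1 was at least 2-fold lower, where 25.5% of genes were. Averaged over nuclei in place of summed, the Gabrg3 log2 ratio turned from 0.30 to -0.41, so its direction depended on how nuclei were combined, and that of Gabrg1 went from -0.84 to -0.08. The median log2 ratio of the members was 0.69, beside -0.18 over all genes tested.

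The comparison of neuron classes alone gave similar ratios for the tonic genes. There Gabrd was at 49.5 CPM (45.6 to 53.6) in 818 adult nuclei and at 0.241 CPM (0.0781 to 0.561, from 5 UMIs) in 2881 E14 nuclei. Gabra4 was 14.3-fold higher (12.9 to 15.9), at 269 CPM against 18.8 CPM, and Gabra5 7.16-fold higher (6.39 to 8.03), at 130 CPM against 18.2 CPM. These 3 were the members at least 2-fold higher, where 17.7% of 19952 genes were. Gabra3 was 3.76-fold lower (3.31 to 4.28) and Gabrg1 4.21-fold lower (3.06 to 5.94, from 43 adult UMIs), where 26.2% of genes were at least 2-fold lower. Gabra2 and Gabrg3 stayed within 2-fold, at ratios of 1.67 (1.61 to 1.74) and 1.23 (1.19 to 1.27). The adult neuron classes were mostly granule and CA1 nuclei and the E14 classes mostly forebrain GABAergic, Meis2-high and thalamic nuclei, so the mix of neurons differed along with age.

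Classes of the same name in both libraries were compared next, to reduce that difference in mix. The thalamic-like class came from a different marker list in each library, with Tcf7l2, Slc17a6 and Ntng1 in both. At E14 Gbx2 was in 9.14% and Lhx9 in 29.9% of its nuclei, and the other listed markers in 60.6% (Slc17a6) to 95.3% (Ntng1). Whether the same neurons were compared was not tested. In thalamic-like nuclei, 90 adult and 700 E14, Gabra4 was at 632 CPM (591 to 675) against 25.6 CPM (21 to 30.8), a ratio of 24.7 (20.3 to 30.4). Gabrd was at 132 CPM (114 to 153) in the adult, while no UMI of it was read in the E14 nuclei, where 3 UMIs would be 0.691 CPM, so against that floor it was at least 191-fold higher. The lower limit of the counting interval of the ratio was 154. Gabra2 went the other way, 2.38-fold lower in the adult (2.07 to 2.75), at 156 CPM against 372 CPM. Thus 2 members were at least 2-fold higher, where 16.2% of 15278 genes were, and 1 was at least 2-fold lower, where 26.7% were. Gabra5 (1.78-fold higher, 1.23 to 2.56), Gabrg3 (1.81-fold higher, 1.67 to 1.97), Gabra3 (1.63-fold lower, 1.29 to 2.08) and Gabrg1 (ratio 1.04, 0.590 to 1.74) lay within 2-fold. For Gabrg1 the interval holds 1. As means over nuclei the log2 ratios were 0.14 in place of 0.83 for Gabra5 and -0.10 in place of -0.70 for Gabra3. With Louvain clusters as classes the log2 ratio of Gabra4 was 5.69 in place of 4.63.

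In cortical excitatory-like nuclei, 32 adult and 282 E14, the same contrast took another form. The adult and E14 marker lists of this class shared only Tbr1 and Fezf2, and whether they found the same neurons was not tested. Gabra2 was 4.93-fold lower in the adult (3.65 to 6.83), at 90.2 CPM (65.5 to 121) against 445 CPM (419 to 471), and Gabrg3 was 6.13-fold higher (5.37 to 7.0), at 998 CPM (912 to 1092) against 163 CPM (148 to 179). Gabra4 and Gabra5 were 4.03-fold (2.70 to 6.00) and 4.65-fold (3.09 to 7.0) higher, and Gabrd, from 18 and 3 UMIs, had a ratio of 31.4 (9.17 to 166). Hence 4 members were at least 2-fold higher, where 20.6% of 13611 genes were, and 2 at least 2-fold lower, where 25.2% were. The second of these, Gabrg1, had no UMI in the adult nuclei, where 3 UMIs would be 6.15 CPM, and 7.44 CPM at E14, so its difference was not detectable at this depth. Gabra3 was at 73.8 CPM against 52.9 CPM, a ratio of 1.40 (0.939 to 2.03) that holds 1. Removing nuclei poor in Malat1 also moved the class border here (41 adult nuclei in place of 32) and brought the Gabra2 difference to -0.84 on the log2 scale, from -2.30. The Gabra5 log2 ratio went from 2.22 to 3.12, and no nuclei were classed as CA3-like in that setting. The direction of the cortical Gabra2 difference was the same, but it was then under 2-fold. This setting changed both which nuclei were kept and which were counted as cortical, and their parts in the move were not tested.

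**Figure D2:**
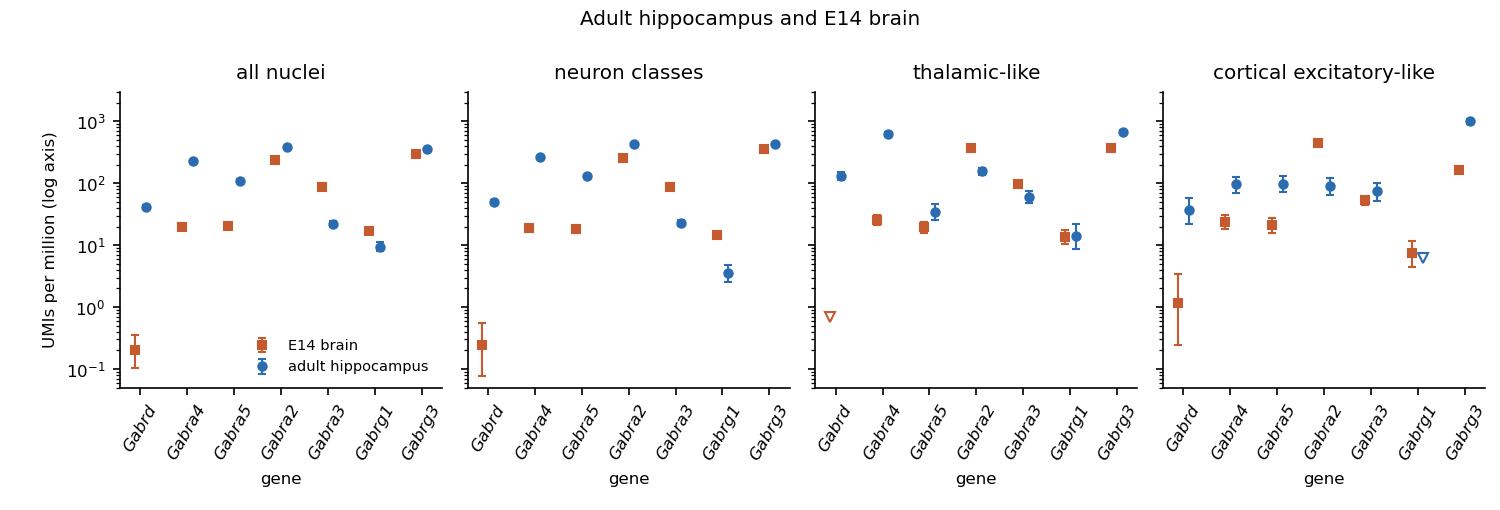
CPM (log axis) of the 7 genes in the E14 brain (squares) and adult hippocampus (circles), for all nuclei, neuron classes, thalamic-like and cortical excitatory-like nuclei, with 95% counting intervals as bars and open triangles at the level of 3 UMIs where none was read. Gabrd, Gabra4 and Gabra5 are higher in the adult in every panel, and Gabra2 is lower in the adult in the 2 right panels (156 against 372 CPM and 90.2 against 445 CPM).

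Within the adult section each gene had its own order of classes. Gabrd was highest in thalamic-like nuclei at 132 CPM, 2.19-fold above dentate granule-like nuclei (1.82 to 2.63), which were at 60.3 CPM (54.1 to 67.1). Inhibitory-like nuclei at 47.8 CPM (29.6 to 73.1) and cortical excitatory-like nuclei at 36.9 CPM (21.9 to 58.3) followed, and neighbours in this order from the granule nuclei on did not differ beyond counting error. CA1-like nuclei were at 10.9 CPM (7.70 to 14.9). No Gabrd UMI was read in 38 CA3-like nuclei, where 3 UMIs would be 3.98 CPM. After thinning to 1000 UMIs 12.8% of thalamic-like nuclei (6.32 to 22.3) and 6.35% of granule nuclei (4.23 to 9.11) held a Gabrd UMI, against 63.3% and 46.0% unthinned. Among 224 thinned oligodendrocyte-like nuclei 3 nuclei would be a share of 1.34%, and the class held only 3 Gabrd UMIs before thinning. The interval of the CA1-like nuclei, at 2.08% (0.570 to 5.25), holds that share.

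Gabra4 followed the same leading classes, at 632 CPM in thalamic-like nuclei, 305 CPM (290 to 319) in granule nuclei and 145 CPM (132 to 158) in CA1-like nuclei, each step beyond counting error. CA3-like nuclei (111 CPM, 88.8 to 138) and astrocyte-like nuclei (111 CPM, 89.2 to 137) did not differ from each other, with a ratio of 1.00 (0.732 to 1.37). Cortical excitatory-like nuclei at 96.4 CPM and inhibitory-like nuclei at 91.0 CPM lay next. Across the 27 classes of both libraries with at least 25 nuclei, Gabra4 and Gabrd had a Pearson r of 0.79 on log2(CPM + 1). This was the highest that Gabrd had with any other member. No E14 class held more than 3 UMIs of Gabrd, so this r also carries the difference between the libraries. An r over the adult classes alone was not computed.

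Gabra5, a subunit known for its density in the hippocampal pyramidal layer, had a different order. CA3-like nuclei were at 210 CPM (178 to 245), 1.24-fold above CA1-like nuclei (1.03 to 1.48) at 169 CPM (156 to 183). A single CA3 nucleus held 30 of the 158 UMIs, and without the nucleus with the most UMIs of each class the ratio was 1.11 (0.909 to 1.35), so these 2 classes were not separable. CA1-like nuclei were 1.33-fold above granule nuclei (1.19 to 1.49) at 127 CPM (118 to 137). Thalamic-like nuclei, first for the other tonic genes, held 34.5 CPM (25.5 to 45.6). The thinned share was 15.6% of CA1-like nuclei (10.8 to 21.5) and 1.28% of thalamic-like nuclei (0.0325 to 6.94), beside 1.79% of oligodendrocyte-like nuclei. By level, however, the thalamic-like nuclei were above the oligodendrocyte-like nuclei, which held 7.56 CPM from 6 UMIs.

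The synaptic alpha genes differed from each other in range. Gabra2 was highest in granule nuclei at 552 CPM (533 to 572), 1.22-fold above CA3-like nuclei (1.09 to 1.36) at 453 CPM (407 to 504). CA1-like nuclei were at 434 CPM (413 to 457). The CA3 and CA1 classes did not differ beyond counting error (ratio 1.04, 0.926 to 1.18). Astrocyte-like nuclei came next at 379 CPM (337 to 425), above thalamic-like (156 CPM), inhibitory-like (139 CPM) and cortical excitatory-like nuclei (90.2 CPM). Gabra3 was lower in the granule and CA1-like nuclei than in several other classes. It was at 73.8 CPM (51.7 to 102) in cortical excitatory-like, 70.9 CPM (41.3 to 113) in oligodendrocyte precursor-like, 68.3 CPM (46.1 to 97.5) in inhibitory-like and 60.5 CPM (48.4 to 74.7) in thalamic-like nuclei, with no step among these beyond counting error. CA1-like nuclei held 33.8 CPM (28 to 40.5), and granule nuclei, with 4 UMIs in 430 nuclei, 0.710 CPM (0.193 to 1.82). Astrocyte-like and oligodendrocyte-like nuclei were also low, with 3 UMIs in each class (3.84 and 3.78 CPM).

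In the adult library Gabrg1 was the one member led by a glial class. Astrocyte-like nuclei held 93.5 CPM (73.3 to 118), 2.80-fold above oligodendrocyte precursor-like nuclei (1.35 to 6.73) at 33.4 CPM (14.4 to 65.7), while granule and CA1-like nuclei held 1.60 and 1.72 CPM. After thinning, 9.92% of astrocyte-like nuclei held a Gabrg1 UMI (5.39 to 16.4) and 0 of 425 granule nuclei, where 3 nuclei would be a share of 0.706%. Unthinned, the shares were 30.5% of astrocyte-like and 1.86% of granule nuclei. The median Gabrg1 count of an astrocyte-like nucleus was 0 and the highest 5. Astrocyte-like nuclei also held Gabra2 (379 CPM) and Gabra4 (111 CPM) at levels far above the oligodendrocyte-like nuclei of the same library, 8.81 and 6.30 CPM, but Gabra5 at 14.1 CPM and Gabra3 at 3.84 CPM. Their Gabrg3 level was 113 CPM (90.4 to 139), against 1.26 CPM in the oligodendrocyte-like nuclei, and did not differ from that of granule nuclei beyond counting error. A few nuclei carried it, since the 16 highest of 151 held 93.2% of these UMIs and the median was 0. In the granule class the 43 highest of 430 nuclei held 53.6%.

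Oligodendrocyte precursor-like nuclei, cells that are known to receive GABAergic synapses, held more of the receptor genes than the oligodendrocyte-like nuclei. Their Gabrg3 level was 350 CPM (279 to 434) against 1.26 CPM, Gabra2 225 CPM (169 to 294) against 8.81 CPM, and Gabra3 70.9 CPM against 3.78 CPM. For Gabra2, 1 nucleus held 25 of the 54 UMIs, and the level without it was 143 CPM (95.7 to 205). These values rest on 33 nuclei, whose median depth of 5640 UMIs was above the 2896 of the oligodendrocyte-like nuclei. Inhibitory marker UMIs were also present in them, at a median of 20 per nucleus beside 43 of their own markers, and the part of these in the result was not tested.

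Gabrg3, which encodes gamma 3, was led by the inhibitory-like class in the adult section. It was at 2661 CPM (2510 to 2818) in inhibitory-like nuclei, 998 CPM in cortical excitatory-like nuclei, 671 CPM (629 to 715) in thalamic-like nuclei and 578 CPM (553 to 603) in CA1-like nuclei, each step beyond counting error. Granule nuclei held 106 CPM (98 to 115) and CA3-like nuclei 78.2 CPM (59.6 to 101), a ratio of 1.36 (1.04 to 1.81). The CA3 level rested on 1 nucleus, and it was 19.3 CPM (10.5 to 32.4) without it. Leaving out the nucleus with the most Gabrg3 UMIs from both classes brought the ratio to 5.36 (3.17 to 9.87). Single nuclei differed widely within these classes. The median per nucleus was 233 CPM in thalamic-like and 453 CPM in CA1-like nuclei, the reverse of their order by summed UMIs. Of the 90 thalamic-like nuclei 33 held no Gabrg3 UMI. In the inhibitory-like class counts ran from 0 to 212 UMIs with a median of 11, and the 4 highest of 31 nuclei held 58.0% of the Gabrg3 UMIs. On the CPM scale per nucleus the class had a median of 1054 and quartiles of 336 and 2692. The 7 of these nuclei with a UMI of Lhx6, a factor of interneurons from the medial ganglionic eminence, lay between 1645 and 7671 CPM with a median of 5051, and the 24 without one between 0 and 6707 CPM with a median of 566. The ranges overlap, and the split by Lhx6 was made after the values were seen. In the CA3-like class 32 of 38 nuclei held no Gabrg3 UMI and 1 nucleus held 45 of the 59, whereas 25 of 197 CA1-like nuclei held none.

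**Figure D3:**
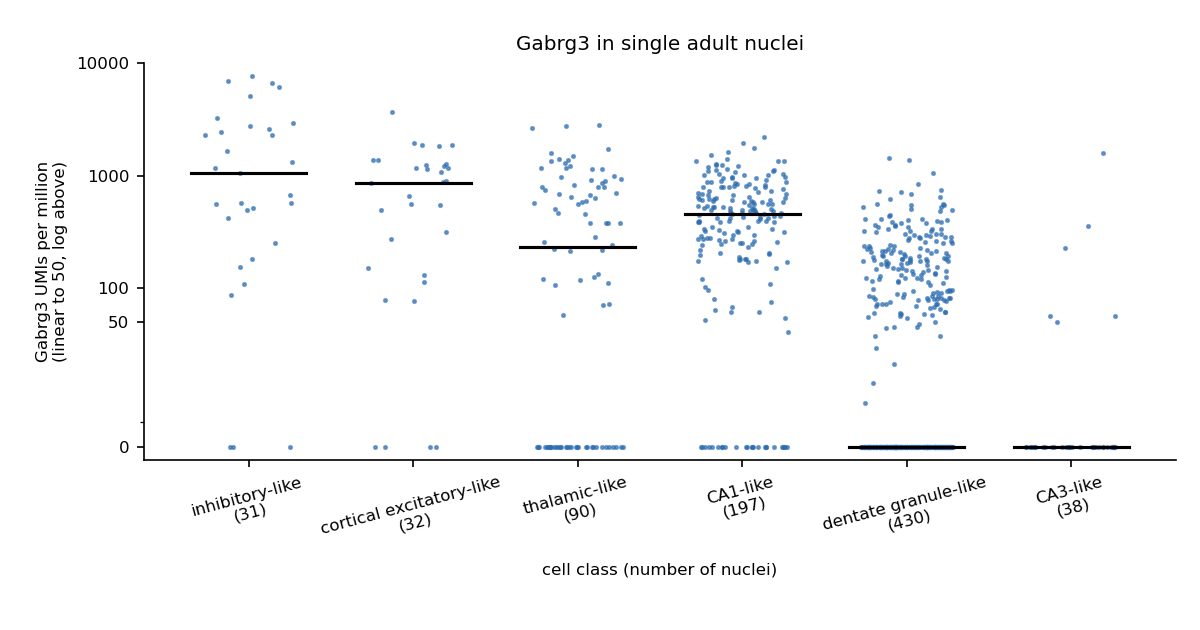
Gabrg3 CPM in each nucleus (points) of the 6 adult neuron classes, with the class median as a black line, on an axis that is linear to 50 and logarithmic above. Medians are 1054 in inhibitory-like, 864 in cortical excitatory-like, 233 in thalamic-like and 453 in CA1-like nuclei, and 0 in dentate granule-like and CA3-like nuclei.

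The granule and CA1 classes came from the same library, so age and preparation were shared. In granule nuclei Gabrd was 5.54-fold (3.96 to 7.97) and Gabra4 2.11-fold (1.91 to 2.33) higher than in CA1-like nuclei, and Gabrg3 was 5.43-fold (4.96 to 5.96) and Gabra3 47.6-fold (18.1 to 178) lower. As a mean over nuclei the log2 ratio of Gabrd was 1.31 in place of 2.47. At least 2-fold higher were thus 2 members, where 15.4% of 15380 genes were, and at least 2-fold lower 2, where 9.14% were. Gabra5 (1.33-fold lower, 1.19 to 1.49) and Gabra2 (1.27-fold higher, 1.19 to 1.35) lay within 2-fold. Gabrg1, from 9 and 6 UMIs, had a ratio of 0.930 (0.295 to 3.17). CA3-like against CA1-like nuclei gave no member at least 2-fold higher, where 9.27% of 13298 genes were, and 3 of the 6 tested at least 2-fold lower, where 13.3% were. These were Gabrg3 (7.38-fold lower, 5.70 to 9.74, and 29.6-fold lower, 17.6 to 54.2, without the nucleus with the most UMIs of it in each class), Gabra3 (4.25-fold lower, 1.89 to 11.8) and Gabrd, with no UMI against 38. Thalamic-like against granule nuclei had 5 members at least 2-fold higher, where 14.8% of 15028 genes were, and 2 lower, where 20.4% were. Gabra3 (85.2-fold, 32.1 to 320), Gabrg1 (8.81-fold, 3.83 to 22.0) and Gabrg3 (6.31-fold, 5.69 to 7.01) were higher there along with Gabrd and Gabra4, and Gabra5 (3.68-fold, 2.75 to 5.02) and Gabra2 (3.53-fold, 3.08 to 4.07) were lower. These comparisons share classes, and each is given by its own values only.

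Per 100 kb of gene, the order of the genes themselves could be read. In granule nuclei the level per 100 kb was 459 CPM for Gabrd, 399 for Gabra2, 344 for Gabra4, 124 for Gabra5, 15.8 for Gabrg3, 1.74 for Gabrg1 and 0.317 for Gabra3. In thalamic-like nuclei it was 1007 CPM for Gabrd, 713 for Gabra4, 113 for Gabra2, 100 for Gabrg3, 33.7 for Gabra5, 27 for Gabra3 and 15.4 for Gabrg1. Gabrd was thus first per length in both, although its UMIs were fewer than those of Gabra4. In E14 thalamic-like nuclei the first was Gabra2 at 269 CPM per 100 kb, with Gabrg3 at 55.1 and Gabra3 at 44.0. This scale takes the whole gene as equally readable, which was not tested.

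Among the alpha genes, the share of UMIs from the tonic pair Gabra4 and Gabra5 was computed as a share of all UMIs of Gabra2, Gabra3, Gabra4 and Gabra5, and was compared across classes only. It was 46.7% in adult neuron classes (45.7 to 47.7, 10457 UMIs) and 9.69% in E14 neuron classes (9.05 to 10.4, 7936 UMIs). In the adult it was 75.5% in thalamic-like nuclei (73.0 to 77.8), where Gabra4 alone gave 71.6%, against 43.9% in granule (42.5 to 45.2), 41.0% in CA3-like (37.0 to 45.1) and 40.1% in CA1-like nuclei (38.3 to 42). The hippocampal shares were close to each other but differently made up. Gabra5 gave 26.8% of the alpha UMIs in CA3-like, 21.6% in CA1-like and 12.9% in granule nuclei, and Gabra4 gave 14.2%, 18.5% and 31.0%. Every E14 neuron class lay between 7.66% (Cajal-Retzius-like, 4.44 to 12.1) and 12.6% (Meis2-high, 10.8 to 14.6), and the thalamic-like class was at 8.72% (7.58 to 9.97). The mesenchyme-like nuclei of that library, at 8.57% (5.16 to 13.2), were in the same range. Radial glia-like nuclei were above every E14 neuron class at 23.1% (19.6 to 26.8). Their interval overlapped those of the microglia or macrophage-like nuclei at 19.2% (12.6 to 27.4) and the endothelial-like nuclei at 16.3% (9.63 to 25.2).

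**Figure D4:**
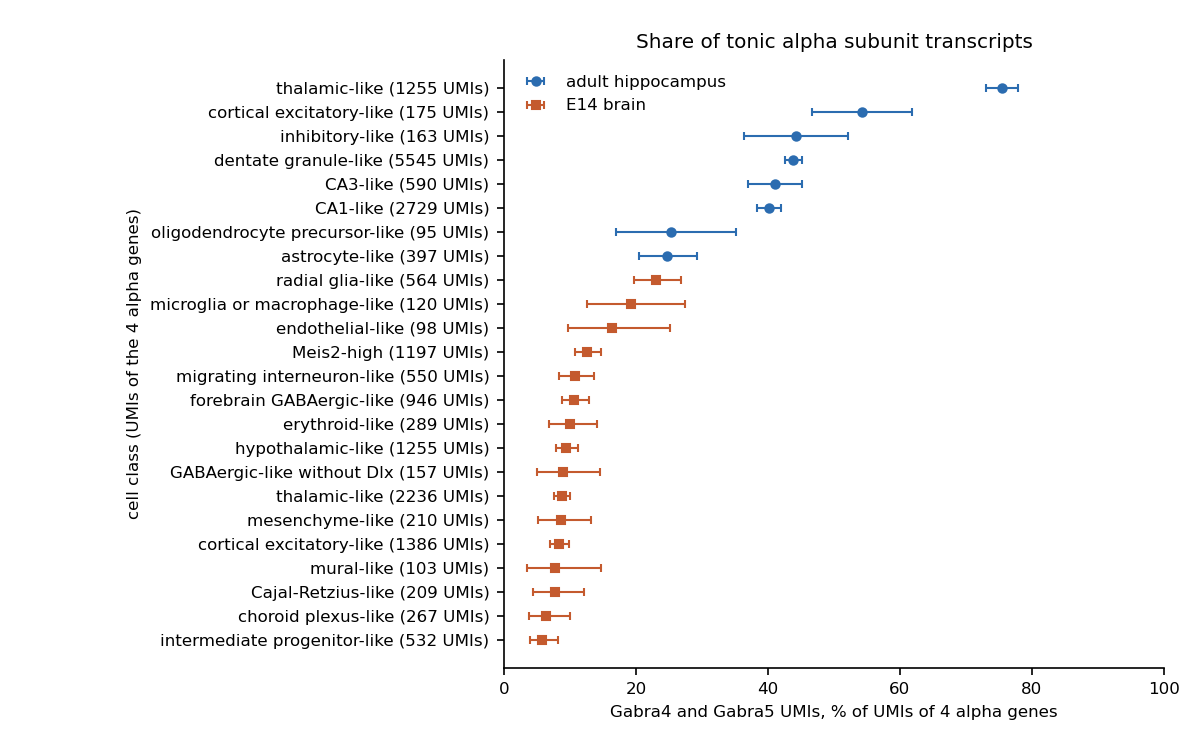
Share of the UMIs of 4 alpha subunit genes that came from Gabra4 and Gabra5, in percent, for each cell class of the adult hippocampus (circles) and E14 brain (squares), with 95% binomial intervals as bars and the number of alpha UMIs in brackets. Adult oligodendrocyte-like, microglia-like, endothelial-like and mural-like nuclei, with 21, 2, 10 and 15 such UMIs, are left out. Adult neuron classes lie between 40.1% and 75.5% and E14 neuron classes between 7.66% and 12.6%.

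Within the E14 brain no tonic gene was above 40.6 CPM in any class. Of the synaptic genes, Gabra2 ran between classes from 49.7 to 445 CPM and Gabrg3 from 65.7 to 845 CPM. Gabra3 ran from 24.4 to 119 CPM and Gabrg1 from 2.25 to 46.8 CPM. Since the genes differ in length, these ranges are not set against each other. No E14 class held more than 3 UMIs of Gabrd. Gabra4 was highest in radial glia-like nuclei, the dividing progenitors of the embryonic brain, at 40.6 CPM (33.6 to 48.8), 1.59-fold above thalamic-like nuclei (1.21 to 2.08) at 25.6 CPM. Among the non-neural classes it ran from 1.81 CPM in endothelial-like to 17.1 CPM in erythroid-like nuclei. Of the radial glia-like nuclei 26.9% were poor in Malat1. Gabra5 was between 7.67 CPM and 25.1 CPM in the neuron classes and lower in the progenitors, at 5.30 CPM (2.97 to 8.74) in radial glia-like and 1.58 CPM (0.192 to 5.72) in intermediate progenitor-like nuclei. Microglia or macrophage-like nuclei, at 25.9 CPM (14.5 to 42.7), were as high as any neuron class for Gabra5, so no neuronal pattern is read from it.

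Gabra2 was highest at E14 in cortical excitatory-like nuclei (445 CPM), 1.20-fold above thalamic-like nuclei (1.11 to 1.29) at 372 CPM (354 to 390). Intermediate progenitor-like nuclei, which hold Eomes and give rise to cortical excitatory neurons, were at 368 CPM (335 to 403) and did not differ from the thalamic class beyond counting error. These 3 classes and the hypothalamic-like nuclei (269 CPM, 251 to 289) were above every non-neural class, while Cajal-Retzius-like nuclei (199 CPM, 169 to 233) and the 4 GABAergic and Meis2-high classes, between 151 and 181 CPM, were not above the erythroid-like nuclei at 196 CPM beyond counting error. The same held against the erythroid-like level of 144 CPM without its highest nucleus, when each class was taken without its nucleus with the most Gabra2 UMIs, with ratios between 0.977 (0.721 to 1.32) and 1.20 (0.935 to 1.55). Radial glia-like nuclei, which the markers do not limit to 1 brain region (Pax6 in 59.5% of them), were at 115 CPM (102 to 128). After thinning, 31.5% of intermediate progenitor-like (23.0 to 41.0) and 29.2% of cortical excitatory-like nuclei (23.9 to 34.9) held a Gabra2 UMI, against 11.2% of radial glia-like (8.03 to 15.0) and 4.55% of mesenchyme-like nuclei (2.29 to 7.99).

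Gabra3 reached 119 CPM (91.2 to 152) in GABAergic-like nuclei without Dlx genes, 117 CPM (105 to 130) in hypothalamic-like and 98.6 CPM (89.5 to 108) in thalamic-like nuclei. It was lower in cortical excitatory-like nuclei at 52.9 CPM (44.3 to 62.6) and in intermediate progenitor-like nuclei at 28.5 CPM (20.0 to 39.4), within the range of the non-neural classes, which reached 69.0 CPM in microglia or macrophage-like nuclei. Gabrg3 was led by the hypothalamic-like class, 314 nuclei with the hypothalamic factors Sim1 in 96.8% and Otp in 91.7%. It was at 845 CPM (812 to 879) there, 1.87-fold above Cajal-Retzius-like nuclei (1.67 to 2.10) at 451 CPM (405 to 501), which were 1.22-fold above thalamic-like nuclei (1.08 to 1.37) at 370 CPM (352 to 388). After thinning 49.4% of hypothalamic-like nuclei held a Gabrg3 UMI (43.7 to 55.0), against 2.89% of mesenchyme-like nuclei (1.17 to 5.87). The hypothalamic-like counts ran from 0 to 88 UMIs with a median of 5, and the 32 highest nuclei held 40.3% of them. Cortical excitatory-like nuclei, with 163 CPM (148 to 179), overlapped in interval with mesenchyme-like nuclei at 152 CPM (132 to 174). The Meis2-high and forebrain GABAergic-like classes, at 238 CPM and 232 CPM, overlapped in interval with the microglia or macrophage-like nuclei at 242 CPM.

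Gabrg1 was highest at E14 in choroid plexus-like nuclei, at 46.8 CPM (36.1 to 59.7), 1.89-fold above forebrain GABAergic-like nuclei (1.34 to 2.65) at 24.8 CPM (19.6 to 30.9). The 9 highest of 86 choroid plexus-like nuclei held 80.0% of the 65 UMIs, and the median was 0. Without the nucleus with the most UMIs, which held 16, the level was 37.6 CPM (27.8 to 49.7). Radial glia-like nuclei, which express the glial transporter Slc1a3 that also marks adult astrocytes, held 12.7 CPM (8.91 to 17.6). The adult library gave no choroid plexus class, so this level has no adult counterpart here.

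The receptor's partner genes, a list of 15 genes for anchoring, assembly and trafficking, were read alongside. Gphn encodes gephyrin, the scaffold of inhibitory synapses. In the neuron classes 4 of 15 were at least 2-fold higher in the adult and 1 lower, where 17.7% and 26.2% of all genes were, with a median log2 ratio of 0.12 beside -0.20 over all genes. Insyn1, of the inhibitory postsynaptic density, was 4.84-fold higher (3.95 to 5.98), at 29.6 CPM against 6.11 CPM. Slitrk3, an adhesion protein of inhibitory synapses, was 3.76-fold higher (3.20 to 4.43), at 39.4 CPM against 10.5 CPM. The GABARAP-related genes Gabarapl1 and Gabarapl2 were 2.72-fold (2.45 to 3.03) and 2.58-fold (2.35 to 2.83) higher. Hap1, which takes part in returning receptors to the surface, was 2.14-fold lower (1.93 to 2.36). Gphn itself was at 503 CPM against 431 CPM, a ratio of 1.17 (1.13 to 1.21), and Nlgn2, the adhesion protein neuroligin 2, was 1.82-fold lower (1.66 to 2.00).

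Over all nuclei 4 of the 15 partner genes were at least 2-fold higher in the adult and 1 lower, beside 17.6% and 25.5% of all genes, with a median log2 ratio of 0.30 beside -0.18. The counts were 4 and 4 in thalamic-like nuclei, beside 16.2% and 26.7% of genes, with a median log2 ratio of -0.36 beside -0.19. They were 6 and 2 in cortical excitatory-like nuclei, beside 20.6% and 25.2%, with a median of 0.08 beside -0.08. Between granule and CA1-like nuclei 4 were at least 2-fold higher and none lower, beside 15.4% and 9.14% of genes, with a median log2 ratio of 0.20 beside 0.14 over all genes. These were Plcl1 (12.9-fold, 11.2 to 15.0), a phospholipase C-related protein that binds GABARAP and receptor beta subunits, Hap1 (8.30-fold, 5.73 to 12.5), Rdx (2.27-fold, 1.81 to 2.88) and Insyn1 (2.18-fold, 1.63 to 2.95). Rdx encodes radixin, which holds alpha 5 receptors outside synapses. Plcl1 was at 719 CPM in granule and 29.6 CPM in thalamic-like nuclei, 24.3-fold lower in the latter (18 to 33.8). The scaffold gene Gphn differed little among these classes, at 537 CPM in granule, 432 CPM in CA1-like, 575 CPM in CA3-like and 478 CPM in thalamic-like nuclei.

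The genes with the most similar pattern to each member were found by Pearson r of log2(CPM + 1) over the 27 classes, among 9772 genes with at least 50 CPM in a class, leaving out the marker and member genes. The 27 points share 2 libraries, so these values describe likeness and carry no test. For Gabrd they were Rab3a (0.84), Ndrg4 (0.84) and Mal2 (0.83), and for Gabra4 B230334C09Rik, Snph and Frrs1l (0.89 each). Gabra5 had Rimbp2 and Mlip (0.90 each). Those of Gabra2 were Apba2 (0.94), Dok6 (0.91) and Adgrb3 (0.91), and those of Gabra3 were Sgcz (0.92), Olfm2 (0.92) and L1cam (0.91). Gabrg1 had lower values, with Nfyc (0.74) and Rorb (0.73). Among the members themselves r was 0.81 for Gabra3 and Gabrg3, 0.74 for Gabra2 and Gabrg3, and 0.06 for the gamma genes Gabrg1 and Gabrg3.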

How the data were processed

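The authors made 20 µm sections, tagged and isolated the nuclei, and counted UMIs per gene with Cell Ranger, introns included, against mm10. The deposited matrices hold counts (whole UMIs per gene and nucleus), and their headers name Cell Ranger 6.1.2 (adult) and 7.0.1 (E14), while the methods give the former for all. Per the methods and the study's list of preprocessing steps, the authors corrected background with CellBender for the E14 brain and not for the hippocampus. Whether the deposited E14 matrix, whose header names Cell Ranger alone, comes before or after that step is not given in the sources used here. Positions were not used.

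Nuclei with at least 500 UMIs (the lowest in either matrix) and under 5% mitochondrial UMIs were kept. Nuclei with at least 3 markers and 3 UMIs of a list, at 0.2 or more of the list's 99th percentile and 1.5 times the next list, seeded the classes (10 seeds or more). Each nucleus then took the class whose seed profile gave its marker UMIs the highest Poisson likelihood, 20-fold over the next. Adult mossy, fibroblast and choroid plexus lists had too few seeds. The scoring rule was set after looking at the data, and the members and gene lists were chosen with earlier results of these data known. Doublets were kept. An automatic Scrublet threshold marked only 6 adult and 4 E14 nuclei and so was not used, and an alternative removed the 20 and 653 nuclei with the highest scores. Fold calls were 2-fold over genes with at least 10 UMIs in both groups together. Thinning to 1000 UMIs used a fixed seed and left out shallower nuclei (1406 adult and 7997 E14 nuclei remained). As a check of the calculation, Poisson counts were simulated for all 32285 genes of the comparison of all nuclei. Changes of about 4-fold were planted in 200 genes with at least 500 UMIs. All 200 were recovered, and 194 of their intervals held the true ratio. This check does not cover genes with few UMIs, such as Gabrd at E14, or spread between nuclei beyond counting error. Named genes were the members, 15 partner genes, class markers and the 3 genes most like each member. Some genes that these rules named, those most like Gabrg3 among them, are not reported here. Python 3.11.15, numpy 2.4.6, scipy 1.17.1, pandas 2.3.3, matplotlib 3.10.9, scanpy 1.11.5 and Seurat 5.3.0 (Louvain clusters) were used.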

Additional observations from a re-analysis of the deposited data

How the results depend on the processing

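No paired analysis was possible because each group has 1 library, and no replicate could be left out. Under the alternatives, 382 values of 61 results were computed, of which 329 moved by less than their counting interval, 52 moved more and 1 changed sign. A minimum of 1000 UMIs per nucleus and marker minimums 2 times as high moved none. As means over nuclei, log2 ratios over all nuclei were 0.30 for Gabra2, 3.21 for Gabra4, 2.23 for Gabra5, -0.076 for Gabrg1 and, with its sign changed, -0.41 for Gabrg3. In neuron classes they were 0.84 for Gabra2, 4.03 for Gabra4 and 0.032 for Gabrg3. In thalamic-like nuclei Gabra3 was -0.10, Gabra5 0.14 and Gabrg3 0.43, in cortical excitatory-like nuclei Gabrg3 was 2.91, and for granule against CA1 nuclei Gabra5 was -0.58, Gabrd 1.31 and Gabrg3 -2.31. As means over nuclei, levels in CPM were 319 (Gabra2) and 88 (Gabra4) in astrocytes, 548 (Gabra4) and 156 (Gabrd) in adult thalamic nuclei, 33.5 for Gabrg1 in E14 choroid plexus nuclei, and for Gabrg3 996 in E14 hypothalamic and 1961 in adult inhibitory nuclei, with tonic shares of 43.0% in CA1 and 70.6% in adult thalamic nuclei. With Louvain clusters, neuron class log2 ratios were 0.55 (Gabra2), 4.01 (Gabra4), 2.55 (Gabra5) and 0.51 (Gabrg3), thalamic ones 5.69 (Gabra4) and 0.56 (Gabrg3), and granule against CA1 0.45 (Gabra2). Levels were 31.5 CPM (Gabra4, radial glia), 32.4 CPM (Gabrg1, choroid plexus) and 2131 CPM (Gabrg3, inhibitory), and the E14 neuron tonic share 9.01%. No Louvain cluster was named hypothalamic, so that level has no value there, and without nuclei poor in Malat1 no nuclei were classed CA3-like. With at most 1% mitochondrial UMIs, log2 ratios over all nuclei were -1.17 (Gabrg1) and 0.35 (Gabrg3), and astrocyte Gabra2 454 CPM. Without nuclei poor in Malat1, cortical ratios were -0.84 (Gabra2), 3.12 (Gabra5) and 2.05 (Gabrg3), and thalamic and astrocyte levels moved within their intervals. Without likely doublets, cortical Gabrg3 was 3.04 and E14 cortical Gabra2 474 CPM. Without mitochondrial and Malat1 UMIs in the denominator, E14 hypothalamic Gabrg3 was 886 CPM. Thinned to 2000 UMIs, shares were 60.6% (Gabra2, granule), 62.2% (Gabra4, adult thalamic), 63.6% (Gabrg3, hypothalamic) and 78.6% (Gabrg3, inhibitory), since more UMIs were drawn. Leaving out the nucleus with the most UMIs of a gene in each class, chosen after seeing the data, moved 5 of 7 values of the CA3, oligodendrocyte precursor and E14 erythroid classes, which are given with those results. The causes of the other moves were not tested. Counting only genes with at least 1 UMI in each library, 20.0% of genes were at least 2-fold higher over all nuclei and 21.7% lower. Depth limits Gabrd at E14, at 12 UMIs, and adult classes of under 40 nuclei.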

Other observations

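Nuclei that the marker rule left without a class were in no comparison by class. In the adult library 196 nuclei were unclear and 78 fitted the pooled profile of nuclei without seeds, and 79.6% of the unclear ones were poor in Malat1. The adult unclear nuclei held 111 CPM of Gabra5 (76.9 to 155), 68.6 CPM of Gabra4 (42.5 to 105) and 32.7 CPM of Gabrd (15.7 to 60.1). At E14 4321 nuclei were unclear, with a median depth of 3091 UMIs, and their levels were 252 CPM of Gabra2 (245 to 260), 112 CPM of Gabra3 (107 to 117), 325 CPM of Gabrg3 (317 to 334) and 29.0 CPM of Gabra5 (26.6 to 31.7). The last was above the 18.2 CPM of the E14 neuron classes. Of the 12 Gabrd UMIs in the E14 library, 5 were in neuron classes, 4 in nuclei of the pooled profile and 3 in unclear nuclei.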
